A study of Mus musculus with 6 samples.

Results

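The genes described here are 45 collagens, collagen-modifying enzymes and extracellular matrix genes of the mouse retina. They were taken by symbol from a deposited table of 55450 genes, and 32 of them had a mean of at least 1 FPKM (fragments scaled to gene length and library depth) over the 6 libraries, the filter that 13673 genes passed. The set was picked because collagen terms leaned lower in the same comparison, Myrf-kd against WT. Its values in that comparison are therefore given as a description, with no p-value for any single gene of the 45, and nothing is read from how many of them passed a threshold. Total retinal RNA was sequenced from C57BL/6 mice at 8 weeks of age, in 3 libraries named Myrf-kd and 3 named wild type (WT), whose values are always given in the order of libraries 1, 2 and 3. The series describes the Myrf-kd mice as Myrf +/−. How the allele was made, which part of Myrf it alters and whether the 3 libraries of a group came from separate animals is not given in the labels, so p-values measure no more than how these samples scatter, which may be technical in part. The MYRF protein is a transcription factor that is cut free from a membrane, best known from myelin-forming cells. In people, its loss is known from eyes that stay short (nanophthalmos).

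Collagens are secreted as triple helices, and the chains, their modification and their crosslinking set the tensile strength of a tissue. The retina itself holds basement membranes, at its inner surface, around its vessels and beneath the pigment epithelium, while the fibrils of the sclera and cornea around it are mostly of type I collagen and those of the vitreous of type II collagen. Small leucine-rich proteoglycans bind these fibrils and hold their diameter and spacing. In RNA of a whole tissue, fewer cells of a type and less RNA per cell cannot be told apart, and the same holds for more or less of a neighbouring tissue in the dissection.

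Stretches of DNA upstream of genes that the results turn on are shown first, so that the genes can be placed in the genome. RefSeq's promoter windows on GRCm38.p6 matched 31 of the 45 genes. Shown are the 250 bases before RefSeq's start of transcription of 4 genes whose 3 Myrf-kd libraries all lay below the 3 WT libraries. The same bases are then shown for 3 genes that were high in the library Myrf-kd 1 alone. In Col11a2 and Optc, RefSeq's start lies further upstream than that of the gene whose levels are given. The Col11a2 window ends at 34039137, with the gene listed from 34039437. The Optc window begins at 133908000, with the gene listed to 133907172 on the minus strand. Each window overlaps no annotated exon and is written 5′ to 3′ on the gene's own strand. Capitals mark motif matches on either strand. A first motif searched was TATAAA, the letters of the TATA box. Another was the CCAAT box, searched by the letters of its name. The GC box was searched as GGGCGG in each window. The motif known for the MYRF protein was searched as CTGGCAC and, with its other middle base, as CTGGTAC on both strands. In the windows shown, no match overlaps another.
Col3a1, chr1:45311288-45311537 (plus strand, GRCm38.p6): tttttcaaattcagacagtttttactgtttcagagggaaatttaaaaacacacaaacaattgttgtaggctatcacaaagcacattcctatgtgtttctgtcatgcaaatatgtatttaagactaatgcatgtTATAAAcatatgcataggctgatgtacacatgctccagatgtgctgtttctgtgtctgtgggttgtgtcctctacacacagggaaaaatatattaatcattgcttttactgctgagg
Col5a1, chr2:27886175-27886424 (plus strand, GRCm38.p6): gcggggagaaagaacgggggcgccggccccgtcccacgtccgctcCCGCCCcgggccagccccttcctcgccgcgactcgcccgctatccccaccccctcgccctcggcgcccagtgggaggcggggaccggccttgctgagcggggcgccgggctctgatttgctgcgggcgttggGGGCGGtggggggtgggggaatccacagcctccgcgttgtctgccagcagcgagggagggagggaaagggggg
Col11a2, chr17:34038888-34039137 (plus strand, GRCm38.p6): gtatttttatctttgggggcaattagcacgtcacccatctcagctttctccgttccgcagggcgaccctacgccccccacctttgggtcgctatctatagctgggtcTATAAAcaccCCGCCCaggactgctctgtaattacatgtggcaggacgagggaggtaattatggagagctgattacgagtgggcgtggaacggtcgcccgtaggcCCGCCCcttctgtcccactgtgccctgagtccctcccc
Serpinh1, chr7:99353240-99353489 (minus strand, GRCm38.p6): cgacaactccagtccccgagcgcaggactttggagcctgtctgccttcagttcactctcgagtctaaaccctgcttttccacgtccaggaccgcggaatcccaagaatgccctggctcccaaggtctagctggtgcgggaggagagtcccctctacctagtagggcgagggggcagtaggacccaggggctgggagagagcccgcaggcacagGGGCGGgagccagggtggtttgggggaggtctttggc
Fbln1, chr15:85205699-85205948 (plus strand, GRCm38.p6): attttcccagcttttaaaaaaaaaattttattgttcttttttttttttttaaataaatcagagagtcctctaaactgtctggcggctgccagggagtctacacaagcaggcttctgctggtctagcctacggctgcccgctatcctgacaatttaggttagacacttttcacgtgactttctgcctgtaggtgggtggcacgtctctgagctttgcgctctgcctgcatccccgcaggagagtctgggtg
Fmod, chr1:134037004-134037253 (plus strand, GRCm38.p6): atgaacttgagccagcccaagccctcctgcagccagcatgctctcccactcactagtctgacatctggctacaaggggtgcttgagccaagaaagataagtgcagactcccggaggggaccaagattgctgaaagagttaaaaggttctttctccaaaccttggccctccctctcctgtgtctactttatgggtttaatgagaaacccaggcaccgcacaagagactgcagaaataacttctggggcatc
Optc, chr1:133908000-133908249 (minus strand, GRCm38.p6): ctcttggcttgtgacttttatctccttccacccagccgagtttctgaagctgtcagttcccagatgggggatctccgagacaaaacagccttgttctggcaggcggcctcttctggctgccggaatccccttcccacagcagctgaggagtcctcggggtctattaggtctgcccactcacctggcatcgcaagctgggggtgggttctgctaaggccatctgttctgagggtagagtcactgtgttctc

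The Col3a1 window was poor in G and C, at 35.2%, and held a TATAAA match. That of Col5a1 was at 76.4% G and C with 2 GC boxes, Col11a2 at 57.6% with a TATAAA match and 2 GC boxes, and Serpinh1 at 63.6% with 1 GC box. The windows of Fbln1, Fmod and Optc, at 46.4%, 51.2% and 56.8% G and C, held none of these letter strings, while a second listed Fbln1 window, at 62.4% G and C and overlapping an exon, held 1 GC box. Over the 31 matched genes, the first listed window held a GC box in 15 (48.4%, against 32.9% of 27025 promoters), a CCAAT box in 10 (32.3%, against 34.5%) and TATAAA in 4 (12.9%, against 13.0%). The MYRF motif was in the window of 0 of the 31 genes, where 5.86% of all promoters held it, which says only that these letters are not in these 250 bases. The median G and C content was 56.4% in the matched genes and 52% in all promoters.

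A further stretch is shown because it separates a pair of type IV collagen genes that are read in opposite directions. Col4a4 and Col4a3 start 71 bases apart, and the bases between their annotated starts, written on the plus strand, overlap no exon and hold none of the motifs:
Col4a4 to Col4a3, chr1:82586850-82586920 (plus strand, GRCm38.p6): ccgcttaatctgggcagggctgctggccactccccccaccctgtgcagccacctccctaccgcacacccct

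The libraries held between 50695091 and 70298511 count units each, with about 4 units per fragment. Myrf itself was at 0.279, 0.382 and 0.351 FPKM in Myrf-kd, against 0.359, 0.397 and 0.463 FPKM in WT, so that the groups overlapped, from 44.8 to 80 fragments a library. The retinal rod genes Gnat1 (3163 ± 208 and 3241 ± 79.7 FPKM) and Pde6b and the Müller glia gene Glul (757 ± 53.6 and 753 ± 40.2 FPKM) were high in all 6 libraries. Xist and Y-linked genes mark Myrf-kd 3 and WT 3 as female and the other 4 as male libraries. Of 13673 genes, 6 passed an adjusted p of 0.05 by the quasi-likelihood test of edgeR (0.0439%), 2 of them lower (0.0146%). Of the 45 genes, the 32 past the filter were in these fits, and 0 of them passed by edgeR, DESeq2 or limma. By edgeR, 3 of the 32 were under an unadjusted p of 0.05, as were 7.49% of all genes tested. The other 13 were below the filter and not fitted there.

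**Figure D1:**
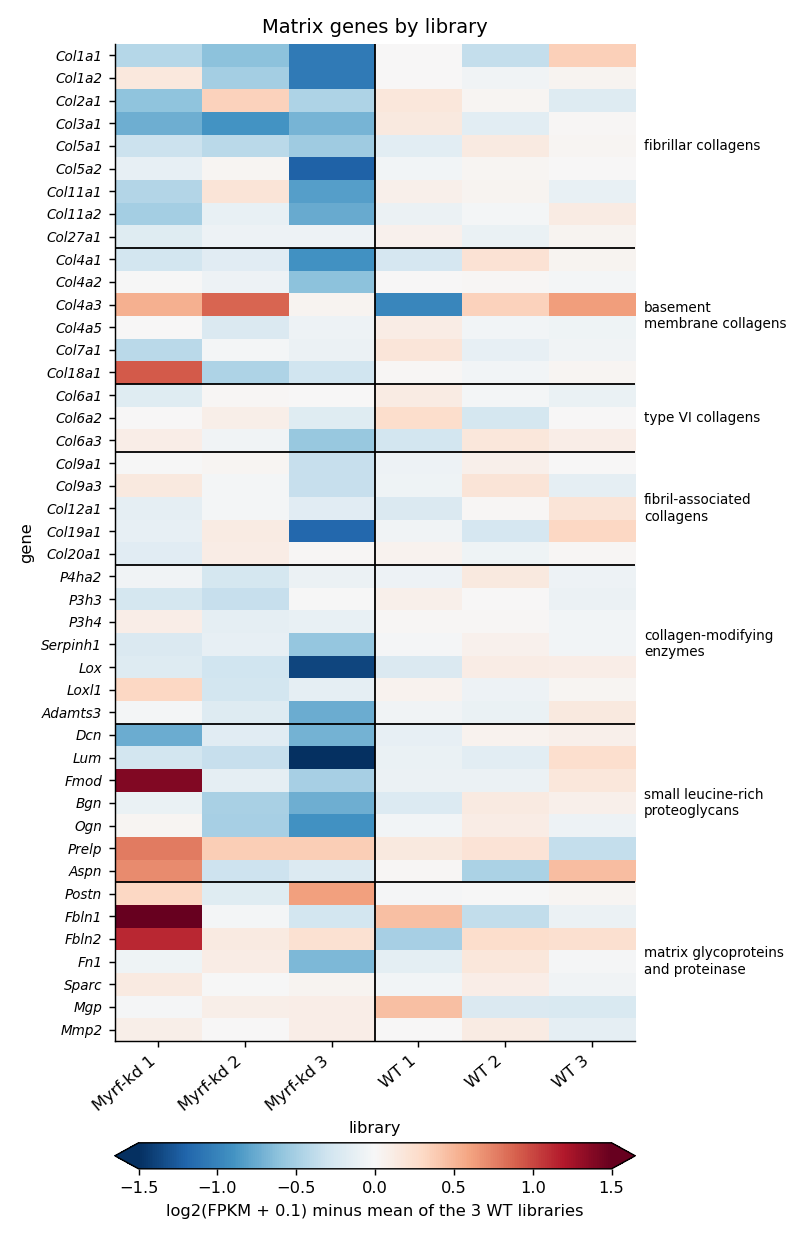
Each row is 1 of 44 matrix genes (Kera, at the table's value for no signal in 5 libraries, is left out) and each column a library; colour gives log2(FPKM + 0.1) minus the mean of the 3 WT libraries, clipped at 1.5 either way. Myrf-kd 3 was the lowest library in 20 of the 45 genes, and Fbln1, Fbln2, Fmod and Col18a1 were highest in Myrf-kd 1.

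Of the 32 genes past the filter, 24 had a lower estimate in Myrf-kd and 8 a higher one, where 49.0% of all genes tested had an estimate below 0. Their median log2 fold change was −0.15, against 0.00 over all genes tested. By class, the median was −0.33 in the fibrillar collagens (5 of 5 lower), −0.27 in the collagen-modifying enzymes (6 of 6 lower), −0.16 in the basement membrane collagens (4 of 6 lower) and −0.12 in the fibril-associated collagens (5 of 5 lower). It was 0.02 in the small leucine-rich proteoglycans (2 of 4 lower) and 0.04 in the matrix glycoproteins with the proteinase gene Mmp2 (1 of 5 lower). Over all 45 genes, 34 had a lower mean FPKM in Myrf-kd than in WT. The FPKM values of the groups did not overlap, with Myrf-kd lower, in 7 of the 45 genes (6.57% of all genes tested, and 4.35% of the genes with a mean of 0.1 to 1 FPKM). They were Col1a1, Col3a1, Col5a1, Col11a2, Serpinh1, Dcn and Lum. Prelp alone lay higher in all 3 Myrf-kd libraries (7.96% of all genes tested, and 7.02% of those at 0.1 to 1 FPKM). Fbln1 passed the filter through Myrf-kd alone, with a WT mean of 0.476 FPKM. Since the set was chosen from this comparison, nothing is read from these shares.

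The lower estimates were unevenly spread over the 3 Myrf-kd libraries. Myrf-kd 3 held the lowest value in 15 of the 32 genes (46.9%, against 24.2% of all genes tested), and WT 2 the highest in 12 (37.5%, against 13.0%). In Myrf-kd 1, 2 and 3 the median gene past the filter stood at −0.06, −0.08 and −0.34 from the WT mean, and in WT 1, 2 and 3 at −0.05, 0.04 and −0.03 (log2 of depth-scaled counts). Without Myrf-kd 3 the median log2 fold change over the 32 genes was −0.09, with lower estimates in 24 (Col9a3 turned higher and Mgp lower), and without Myrf-kd 1 it was −0.21, with 27 lower. Myrf-kd 3 also held the highest sum of 14 lens genes, 44.7 FPKM, against 0.645 to 15.1 FPKM in the other 5 libraries (11 of the 14 were at 0 in some library), and the part of lens tissue or of sex in its matrix values was not tested. Over the 4 male libraries alone the median was −0.10, with 25 of the 32 genes lower.

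**Figure D2:**
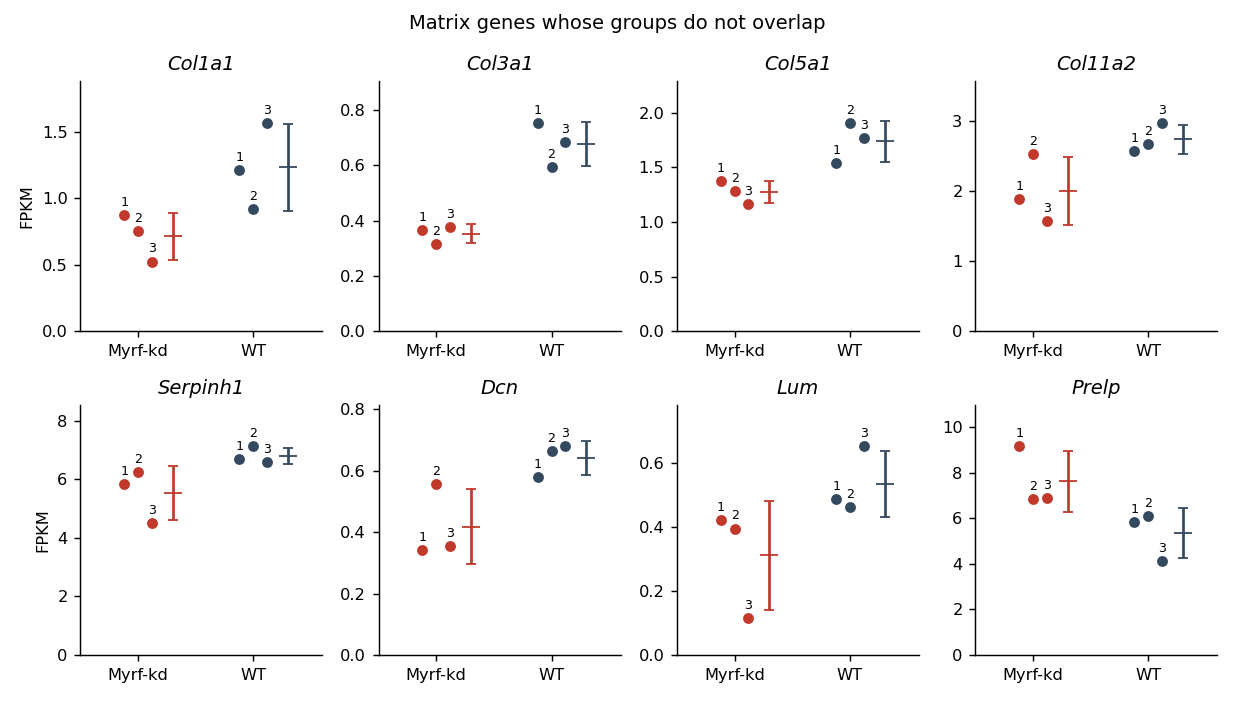
FPKM of the 8 matrix genes whose Myrf-kd and WT libraries do not overlap; each point is a library, labelled by its number, and the bars give the mean ± SD of 3 libraries. In Col1a1, Col3a1, Col5a1, Col11a2, Serpinh1, Dcn and Lum every Myrf-kd library lies below every WT library, and in Prelp above.

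The fibrillar collagens form the banded fibrils. Col3a1 (ENSMUSG00000026043, chromosome 1, 45311538 to 45349706), the single chain of type III collagen, was at 0.367, 0.315 and 0.378 FPKM in Myrf-kd, against 0.755, 0.595 and 0.684 FPKM in WT. All 3 Myrf-kd libraries lay within a narrow band well under the WT libraries, on 55.8 to 138 fragments a library. The means were 0.353 ± 0.0338 FPKM in Myrf-kd, against 0.678 ± 0.0801 FPKM in WT (mean ± SD of 3 libraries, as throughout), a ratio of 0.522, the lowest ratio among the 8 genes whose groups did not overlap. Col1a1 (ENSMUSG00000001506, chromosome 11, 94936224 to 94953042), the main chain of the type I helix, was at 0.872, 0.752 and 0.525 FPKM in Myrf-kd, against 1.21, 0.919 and 1.57 FPKM in WT. Myrf-kd 1 and WT 2 nearly met, and WT 3 stood highest. The means were 0.717 ± 0.177 FPKM in Myrf-kd, against 1.23 ± 0.326 FPKM in WT, a ratio of 0.581. Its partner Col1a2 ranged from 0.349 FPKM in Myrf-kd 3 to 0.944 FPKM in Myrf-kd 1, so that the library with the highest Col1a2 was a Myrf-kd library. Type I and type III collagen, the main fibrils of the sclera, were thus both listed under 2 FPKM in every retina library.

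Type V collagen is known for starting the assembly of type I fibrils. Col5a1 (ENSMUSG00000026837, chromosome 2, 27886425 to 28039514), its common chain, was at 1.37, 1.29 and 1.17 FPKM in Myrf-kd, against 1.54, 1.91 and 1.77 FPKM in WT. The Myrf-kd libraries lay between 1.17 and 1.37 FPKM, all under the lowest WT library, WT 1. Its means were 1.28 ± 0.103 FPKM in Myrf-kd, against 1.74 ± 0.187 FPKM in WT, and its log2 fold change was −0.47 ± 0.13. The second chain, Col5a2, was at 0.923, 1.04 and 0.382 FPKM in Myrf-kd, against 0.986, 1.04 and 1.02 FPKM in WT. Myrf-kd 1 and 2 lay within or close to the WT values, and the low level of Myrf-kd 3 alone set the lower group mean.

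Col2a1 (ENSMUSG00000022483, chromosome 15, 97975602 to 98004695) encodes type II collagen, the fibril of cartilage and vitreous, and had the highest level of the fibrillar collagens. It was at 10.3, 20.01 and 11.4 FPKM in Myrf-kd, against 17.7, 15.98 and 13.7 FPKM in WT. Myrf-kd 2 was the highest and Myrf-kd 1 the lowest of all 6 libraries, so that the Myrf-kd values enclosed the WT values. The log2 fold change was −0.20 ± 0.25, and it ranged from −0.55 without Myrf-kd 2 to −0.03 without Myrf-kd 1. Type XI collagen is built into type II fibrils and limits their width. Col11a1 was at 2.76, 4.35 and 2.097 FPKM in Myrf-kd, against 3.98, 3.899 and 3.48 FPKM in WT, with a log2 fold change of −0.33 ± 0.24. As for Col2a1, Myrf-kd 2 stood highest and the other Myrf-kd libraries lowest, and the estimate was −0.65 without Myrf-kd 2 and −0.12 without Myrf-kd 3. Col11a2 (ENSMUSG00000024330, chromosome 17, 34039437 to 34066685) was at 1.89, 2.53 and 1.58 FPKM in Myrf-kd, against 2.57, 2.67 and 2.98 FPKM in WT. Here Myrf-kd 2 lay just under the lowest WT library, so that the groups did not overlap, and Myrf-kd 2 was again the highest of its group. The means were 2.001 ± 0.488 FPKM in Myrf-kd, against 2.74 ± 0.2104 FPKM in WT, with a log2 fold change of −0.47 ± 0.18. Col27a1, a fibrillar collagen known from growth cartilage, was at 1.22, 1.32 and 1.31 FPKM in Myrf-kd, against 1.45, 1.28 and 1.43 FPKM in WT. Its groups overlapped within a small range, and the log2 fold change was −0.14 ± 0.09.

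Myrf-kd 2, the highest of its group in Col2a1, Col11a1 and Col11a2, was also highest in the sum of 5 genes known from cartilage. Aggrecan (Acan), matrilin-1 (Matn1), matrilin-3 (Matn3), link protein (Hapln1) and Comp summed to 4.47, 8.00 and 3.63 FPKM in Myrf-kd and to 6.08, 6.34 and 6.21 FPKM in WT. The sum was highest in Myrf-kd 2 and lowest in Myrf-kd 3, and none of the 5 genes was at 0 in any library. Acan, Matn1, Hapln1 and Comp were each highest in Myrf-kd 2, but Matn3 was not. Matn3 was at 0.208, 0.166 and 0.0159 FPKM in Myrf-kd, and highest in WT 3, at 0.241 FPKM. Sox9, the other gene of that list, is also a Müller glia gene and was left out of the sum. The part of a source shared with these genes in the collagen values was not tested.

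Basement membrane collagens form sheets rather than fibrils. Col4a1 and Col4a2, the common type IV chains known from vessel walls, lie head to head on chromosome 8, and their annotated ends overlap by 22 bases. Col4a1 (ENSMUSG00000031502, chromosome 8, 11198423 to 11312826) was at 7.04, 7.6 and 4.53 FPKM in Myrf-kd, against 7.15, 9.93 and 8.83 FPKM in WT. Myrf-kd 3 was the lowest library and WT 2 the highest, while Myrf-kd 1 and 2 lay near WT 1. The log2 fold change was −0.46 ± 0.21. Col4a2 was at 7.31, 6.96 and 4.79 FPKM in Myrf-kd, against 7.41, 7.47 and 7.22 FPKM in WT, with a log2 fold change of −0.23 ± 0.16. Its WT libraries lay close together, Myrf-kd 1 lay among them and Myrf-kd 3 stood apart. Without Myrf-kd 3 the estimates were −0.26 for Col4a1 and −0.07 for Col4a2. Summed levels of 12 endothelial genes were 34.1 to 35.3 FPKM in Myrf-kd and 33.0 to 34.9 FPKM in WT. Without Kdr, the most abundant of them and highest in Myrf-kd 3, the other 11 summed to 23.5, 23.04 and 20.8 FPKM in Myrf-kd, against 23.2, 22.1 and 22.5 FPKM in WT, so that Myrf-kd 3 was the lowest library. For 10 pericyte and smooth muscle genes the sums were 21.4 to 22.0 FPKM in Myrf-kd and 21.2 to 23.4 FPKM in WT. Rgs5, the most abundant, went the other way, at 10.62, 11.72 and 11.81 FPKM in Myrf-kd, against 9.77, 10.26 and 10.60 FPKM in WT. Without it, the other 9 summed to 10.8, 10.3 and 10.2 FPKM in Myrf-kd, against 12.2, 10.9 and 12.8 FPKM in WT. All Myrf-kd libraries lay below all WT libraries only in this reduced sum. Of the 9 genes, Tagln alone was lower without overlap, and the pericyte gene Pdgfrb was at 2.67 ± 0.262 and 2.65 ± 0.249 FPKM. The part of these vessel cells in the type IV collagen values was not tested.

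Col4a3 (ENSMUSG00000079465, chromosome 1, 82586921 to 82722059), a chain of the type IV network known from kidney, inner ear and eye, had a higher estimate in Myrf-kd. It was at 2.72, 3.46 and 1.89 FPKM in Myrf-kd, against 0.886, 2.36 and 2.902 FPKM in WT. WT 1 stood alone at the bottom, and the other 5 libraries lay between 1.89 and 3.46 FPKM with both groups mixed. The log2 fold change was 0.37 ± 0.43, and without WT 1 it was −0.00. Col4a5, its X-linked partner, was at 1.76, 1.49 and 1.66 FPKM in Myrf-kd, against 1.89, 1.69 and 1.67 FPKM in WT. The groups overlapped, the female libraries Myrf-kd 3 and WT 3 lay within the range of the males, and the log2 fold change was −0.12 ± 0.11. Col7a1, the collagen of the anchoring fibrils beneath epithelia, was at 1.57, 2.06 and 1.97 FPKM in Myrf-kd, against 2.39, 1.92 and 2.01 FPKM in WT, with a log2 fold change of −0.19 ± 0.13. Myrf-kd 1 was its lowest library and WT 1 its highest, with the other 4 close together. Col18a1 (ENSMUSG00000001435, chromosome 10, 77052178 to 77166548), a basement membrane collagen whose end is released as endostatin, was at 4.98, 1.84 and 2.07 FPKM in Myrf-kd, against 2.598, 2.51 and 2.62 FPKM in WT. Myrf-kd 1 was far above the rest, and Myrf-kd 2 and 3 lay below all 3 WT libraries. The log2 fold change of 0.19 ± 0.37 therefore became −0.42 without Myrf-kd 1.

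Type VI collagen forms beaded filaments around cells. Col6a1 was at 8.55, 9.88 and 9.77 FPKM in Myrf-kd, against 10.6, 9.53 and 9.095 FPKM in WT, with overlapping groups and a log2 fold change of −0.07 ± 0.09. Col6a2, 85.2 kb away on chromosome 10, was at 0.948, 1.01 and 0.825 FPKM in Myrf-kd, against 1.15, 0.7699 and 0.946 FPKM in WT, also overlapping. Col6a3 ranged from 0.272 FPKM in Myrf-kd 3 to 0.523 FPKM in WT 2. The level of Col6a1 was far above that of either partner, although the known helix takes up equal copies of the chains.

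Fibril-associated collagens sit on the surface of other fibrils. Col9a1, a chain of the type IX collagen that coats type II fibrils in the vitreous, was at 10.8, 11.02 and 8.49 FPKM in Myrf-kd, against 10.3, 11.4 and 10.9 FPKM in WT, with a log2 fold change of −0.12 ± 0.11. Myrf-kd 3 was lowest, the other 5 libraries lay within 10.3 to 11.4 FPKM, and the estimate was −0.01 without Myrf-kd 3. Col9a3, of the same helix, was at 2.302, 2.03 and 1.596 FPKM in Myrf-kd, against 1.97, 2.38 and 1.87 FPKM in WT, with a log2 fold change of −0.09 ± 0.18 and overlapping groups. Col12a1, which decorates type I fibrils, was at 1.15, 1.25 and 1.12 FPKM in Myrf-kd, against 1.09, 1.29 and 1.48 FPKM in WT. The lowest library was WT 1 and the highest WT 3, and the log2 fold change was −0.15 ± 0.13. Col19a1, a collagen known from some neurons and basement membrane zones, was at 1.38, 1.67 and 0.613 FPKM in Myrf-kd, against 1.45, 1.26 and 1.904 FPKM in WT. Myrf-kd 3 was far below all others, with 83.2 to 263 fragments a library. Its estimate of −0.35 ± 0.36 was −0.04 without Myrf-kd 3. Col20a1 was at 4.26, 5.24 and 4.89 FPKM in Myrf-kd, against 5.004, 4.59 and 4.88 FPKM in WT, with a log2 fold change of −0.03 ± 0.10, and its WT values lay within the Myrf-kd range.

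**Figure D3:**
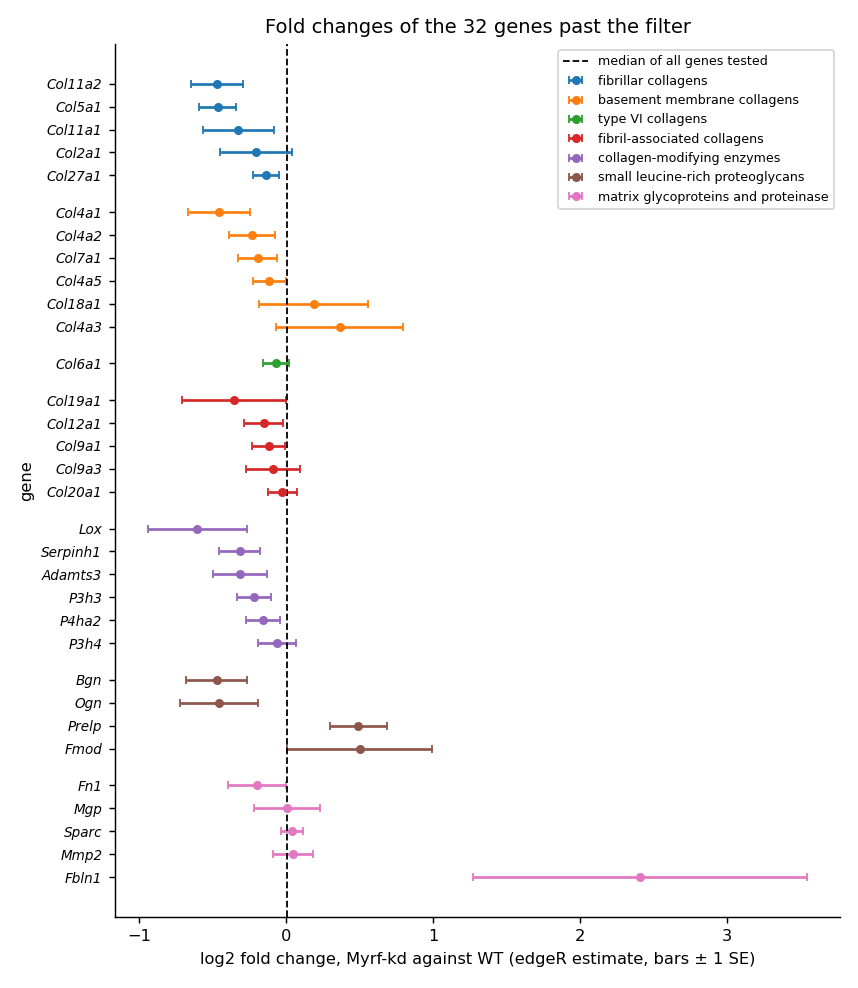
Log2 fold change of Myrf-kd against WT for the 32 matrix genes past the filter, by class, with bars of 1 SE from the edgeR fit on 3 libraries per group; the dashed line is the median of all genes tested, 0.00. The fibrillar and fibril-associated collagens and the enzymes lie left of it, and Fbln1, at 2.41 ± 1.14, has the widest bar.

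The enzymes and chaperones act on collagen inside the cell or after its release. Serpinh1 (ENSMUSG00000070436, chromosome 7, 99345376 to 99353239), the collagen chaperone HSP47, was at 5.83, 6.26 and 4.504 FPKM in Myrf-kd, against 6.69, 7.12 and 6.58 FPKM in WT. The WT libraries lay close together above all 3 Myrf-kd libraries, of which Myrf-kd 3 was lowest. Its means were 5.53 ± 0.914 FPKM in Myrf-kd, against 6.798 ± 0.283 FPKM in WT and the log2 fold change was −0.32 ± 0.14, or −0.19 without Myrf-kd 3. P4ha2, a catalytic subunit of collagen prolyl 4-hydroxylase, was at 4.09, 3.52 and 3.97 FPKM in Myrf-kd, against 4.03, 4.69 and 4.02 FPKM in WT, highest in WT 2 and otherwise overlapping, with a log2 fold change of −0.16 ± 0.11. P3h3, of the prolyl 3-hydroxylase family, was at 4.42, 4.17 and 5.298 FPKM in Myrf-kd, against 5.64, 5.33 and 5.02 FPKM in WT. Myrf-kd 1 and 2 were its lowest libraries, Myrf-kd 3 lay among the WT values, and the log2 fold change was −0.22 ± 0.12. P3h4, which works with P3h3 in lysine hydroxylation of collagen, was at 3.03, 2.57 and 2.61 FPKM in Myrf-kd, against 2.86, 2.86 and 2.75 FPKM in WT, with overlapping groups and a log2 fold change of −0.06 ± 0.13.

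Adamts3, the proteinase that trims type II procollagen, had the highest level of the enzymes. It was at 9.55, 8.52 and 5.78 FPKM in Myrf-kd, against 9.41, 9.12 and 10.8 FPKM in WT. Myrf-kd 1 lay within WT and Myrf-kd 3 far under it, and the log2 fold change of −0.32 ± 0.18 was −0.13 without Myrf-kd 3. Lox, lysyl oxidase, crosslinks collagen and elastin. It was at 1.41, 1.31 and 0.565 FPKM in Myrf-kd, against 1.39, 1.77 and 1.76 FPKM in WT, with 53.2 to 169 fragments per library. Myrf-kd 1 lay close to WT 1, while Myrf-kd 3 was far below every other library. Its log2 fold change of −0.60 ± 0.34, the lowest of the 32 genes, was −0.29 without Myrf-kd 3. Loxl1, a relative known from elastic fibres, ranged from 0.71 FPKM in Myrf-kd 2 to 1.11 FPKM in Myrf-kd 1, with similar group means.

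Most of the small leucine-rich proteoglycan genes lie beside each other in the genome. Decorin (Dcn), lumican (Lum) and keratocan (Kera) follow each other on chromosome 10, 47.0 and 34.2 kb apart. Dcn (ENSMUSG00000019929, chromosome 10, 97479609 to 97518143), which binds type I fibrils, was at 0.342, 0.558 and 0.354 FPKM in Myrf-kd, against 0.579, 0.665 and 0.679 FPKM in WT. Myrf-kd 2 nearly reached WT 1, and the means were 0.418 ± 0.121 FPKM in Myrf-kd, against 0.641 ± 0.0542 FPKM in WT. Lum (ENSMUSG00000036446, chromosome 10, 97565128 to 97572703), which spaces the fibrils of the cornea, was at 0.421, 0.394 and 0.116 FPKM in Myrf-kd, against 0.487, 0.462 and 0.6504 FPKM in WT. Each rests on only 5.8 to 32 fragments, and Myrf-kd 3 was the lowest. The means were 0.3103 ± 0.169 FPKM in Myrf-kd, against 0.533 ± 0.103 FPKM in WT. Kera, the marker of corneal stromal cells, was listed at 0.0206 FPKM in WT 3, from 1 fragment, and at the table's value for no signal in the other 5 libraries.

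On chromosome 1, Prelp lies 3.13 kb from Optc and 116 kb from Fmod. Prelp (ENSMUSG00000041577, chromosome 1, 133910304 to 133921414), which anchors basement membranes to the matrix, was at 9.15, 6.84 and 6.87 FPKM in Myrf-kd, against 5.85, 6.11 and 4.104 FPKM in WT. It was the only one of the 45 genes with all Myrf-kd libraries above all WT libraries, and Myrf-kd 1 was again the highest. The means were 7.62 ± 1.33 FPKM in Myrf-kd, against 5.36 ± 1.09 FPKM in WT and the log2 fold change was 0.49 ± 0.19. Fmod (ENSMUSG00000041559, chromosome 1, 134037254 to 134048277), fibromodulin, a regulator of collagen fibril growth, was at 5.74, 1.93 and 1.48 FPKM in Myrf-kd, against 1.999, 1.999 and 2.41 FPKM in WT. Myrf-kd 1 stood alone at the top and Myrf-kd 3 was lowest. Its log2 fold change of 0.50 ± 0.49 turned to −0.35 without Myrf-kd 1. Ogn and Aspn lie on chromosome 13 with Omd between them. Ogn, osteoglycin, was at 1.72, 1.17 and 0.855 FPKM in Myrf-kd, against 1.64, 1.84 and 1.595 FPKM in WT, with a log2 fold change of −0.46 ± 0.27. Myrf-kd 1 lay within WT, Myrf-kd 2 and 3 below it, and the estimate was −0.25 without Myrf-kd 3. Aspn, asporin, which binds type I collagen, was at 0.372, 0.133 and 0.1498 FPKM in Myrf-kd, against 0.192, 0.107 and 0.298 FPKM in WT, from 3.8 to 16.5 fragments, with no order between the groups. Bgn, biglycan, a close relative of decorin on the X chromosome, was at 1.44, 1.08 and 0.894 FPKM in Myrf-kd, against 1.33, 1.71 and 1.63 FPKM in WT. Only Myrf-kd 1 reached a WT value, that of WT 1, and the log2 fold change was −0.47 ± 0.21.

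The matrix glycoproteins had the highest and some of the lowest levels. Sparc, a collagen-binding protein made by glia and vessels, was at 51.2, 46.4 and 47.8 FPKM in Myrf-kd, against 45.2, 49.8 and 44.8 FPKM in WT, the highest of the 45 genes. The groups overlapped and the log2 fold change was 0.04 ± 0.08. Fn1, fibronectin, was at 10.6, 11.96 and 6.93 FPKM in Myrf-kd, against 9.97, 12.4 and 10.95 FPKM in WT. Myrf-kd 3 alone was low, and the log2 fold change of −0.20 ± 0.20 was −0.00 without it. Mgp, the matrix Gla protein that keeps vessels free of mineral, was at 2.65, 2.85 and 2.87 FPKM in Myrf-kd, against 3.69, 2.29 and 2.26 FPKM in WT. WT 1 was the highest library and the log2 fold change was 0.00 ± 0.22. Mmp2, the proteinase gelatinase A, was at 1.87, 1.76 and 1.88 FPKM in Myrf-kd, against 1.76, 1.91 and 1.58 FPKM in WT, with all 6 libraries close and a log2 fold change of 0.05 ± 0.14. Postn, periostin, a partner of collagen fibrils, ranged from 0.095 FPKM in Myrf-kd 2 to 0.24 FPKM in Myrf-kd 3.

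Fbln1 (ENSMUSG00000006369, chromosome 15, 85205949 to 85286535), fibulin-1, a protein of elastic fibres and basement membranes, had the largest ratio between libraries among those of the 45 genes with signal in every library. It was at 6.88, 0.448 and 0.364 FPKM in Myrf-kd, against 0.666, 0.333 and 0.429 FPKM in WT. Myrf-kd 1 was 10.3 times the next library, with up to 562 fragments, and the other 5 libraries overlapped. Its estimate of 2.41 ± 1.14 turned to −0.25 without Myrf-kd 1. Fbln2, its relative, was at 0.267 FPKM in Myrf-kd 1 and at 0.0188 to 0.101 FPKM elsewhere. Myrf-kd 1 was thus the library with the highest Fbln1, Fbln2, Fmod, Col18a1 and Prelp. It was the highest library in 10 of the 45 genes, also in Col1a2, P3h4, Loxl1, Aspn and Sparc, and WT 2 in 13. Past the filter, Myrf-kd 1 was highest in 6 of 32 genes (18.8%, against 11.3% of all genes tested).

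**Figure D4:**
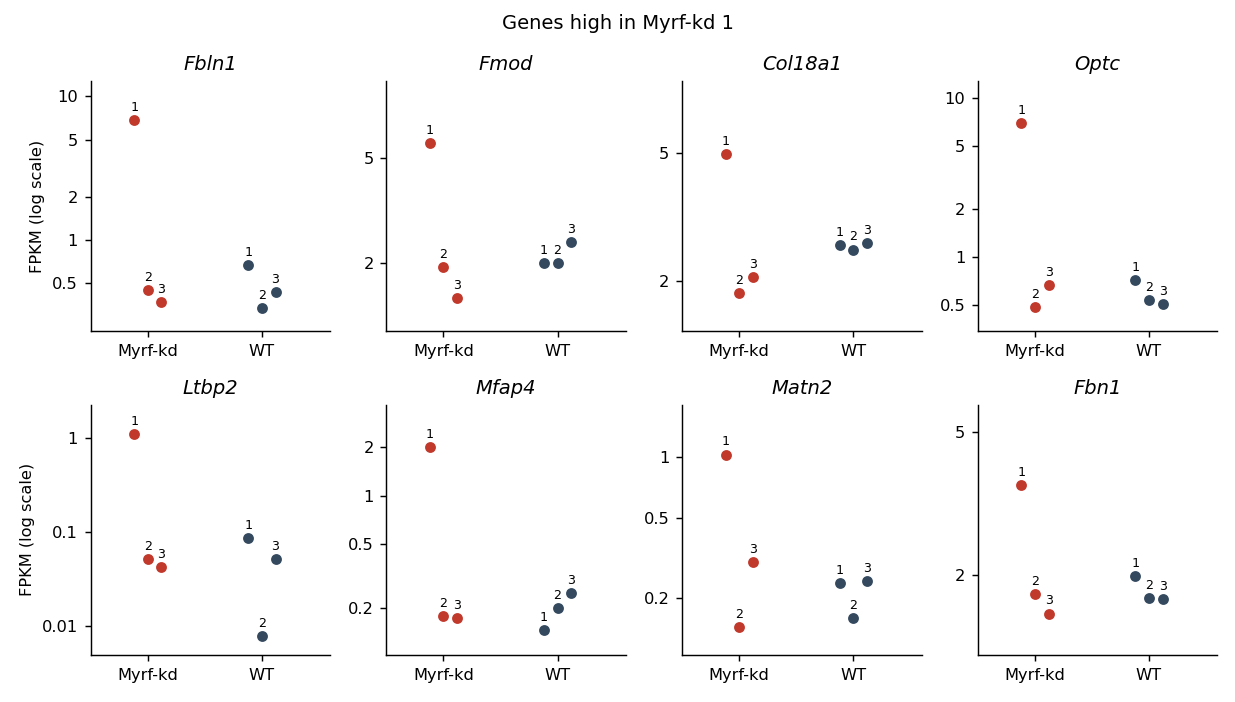
FPKM on a log axis for 3 of the 45 genes (Fbln1, Fmod, Col18a1) and 5 further matrix genes; each point is a library, labelled by its number. Myrf-kd 1 is the highest library in all 8 genes.

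Matrix genes outside the 45 were high in the same library. Optc, opticin, a proteoglycan of the vitreous made by the ciliary body, was at 6.97, 0.4898 and 0.672 FPKM in Myrf-kd, against 0.722, 0.541 and 0.508 FPKM in WT. Myrf-kd 1 was 9.66 times the next library. Ltbp2, a protein of the ciliary zonule, was at 1.12 FPKM in Myrf-kd 1, 12.9 times the next library, and Mfap4, of elastic microfibrils, at 2.02 FPKM, 8.16 times the next. Matn2, matrilin-2, was at 1.03 FPKM, 3.40 times the next library. Of the 8 ciliary body and iris genes in the table, Slc26a4 was at 1.72 FPKM there and at 0.137 FPKM or less in the other 5 libraries. Msx1 was at 0 in 3 libraries and Slc26a4 in 1. Cdh2, which the retina expresses as well, was highest in WT 2. Without it, the 7 others summed to 10.4 FPKM in Myrf-kd 1 and to 5.35 to 6.19 FPKM in the other 5. Among the 7, Slc26a4, Wfdc1, Zic1 and Msx1 were highest in Myrf-kd 1. Opcml was highest in Myrf-kd 2, Cpxm2 in WT 2 and Bmp4 in WT 1. Markers of other tissues were high there too. The fibroblast and meninges gene Slc6a13 was at 3.02 FPKM, 2.30 times the next library. All 13 genes of its list summed to 92.6 FPKM there and to 49.5 to 73.5 FPKM elsewhere, and without Ptgds to 13.1 and 9.75 to 12.7 FPKM. The pigment gene Tyrp1 was at 4.49 FPKM and at most 2.45 FPKM elsewhere, but the pigment epithelium genes without Rlbp1 summed lowest there. The part of ciliary or other tissue in the values of this library was not tested.

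Genes of other tissues around the retina were set beside the collagens, by lists of their markers. Of 16 cornea and surface epithelium genes, Clu and Pax6 are also retinal, and the other 14 summed to 2.45 to 4.07 FPKM in Myrf-kd and 8.97 to 13.3 FPKM in WT. These groups did not overlap, at 2.45, 4.07 and 3.68 FPKM in Myrf-kd, against 8.97, 13.3 and 9.14 FPKM in WT. Ly6d was at 0 in every library, and among the others Krt5, Krt4, Krt14, Sprr1a, Dsg1a and, for the corneal stroma, Kera in some. The sum was lowest in Myrf-kd 1 and highest in WT 2. Of the 7 matrix genes lower without overlap, only Dcn was lowest in Myrf-kd 1, and only Col5a1 and Serpinh1 were highest in WT 2. Of 13 fibroblast and meninges genes, 12 without the retinal gene Ptgds summed to 9.75 to 13.1 FPKM in Myrf-kd and 11.1 to 12.7 FPKM in WT, overlapping, with Dpt, Pi16, Dpep1 and Twist2 at 0 in some libraries. All 12 pigment epithelium genes summed to 150 to 169 FPKM in Myrf-kd and 171 to 210 FPKM in WT, without overlap. Without Rlbp1, also a Müller glia gene, the other 11 summed to 63.8 to 82.3 FPKM in Myrf-kd and 78.2 to 107 FPKM in WT, overlapping. The part of cornea or of other neighbouring tissue in the lower collagen values was not tested. The 10 skeletal muscle genes summed to 3.55 to 4.39 FPKM in Myrf-kd and 2.57 to 5.31 FPKM in WT, and 6 blood genes to 53.6 to 60.4 and 41.2 to 103 FPKM. The 9 Müller glia genes summed to 1141 to 1227 FPKM in Myrf-kd and 1150 to 1241 FPKM in WT, the 5 astrocyte genes to 110.0 to 127 and 104 to 119.7 FPKM, and the 3 corneal endothelium genes to 1.80 to 2.53 and 2.25 to 2.95 FPKM.

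**Figure D5:**
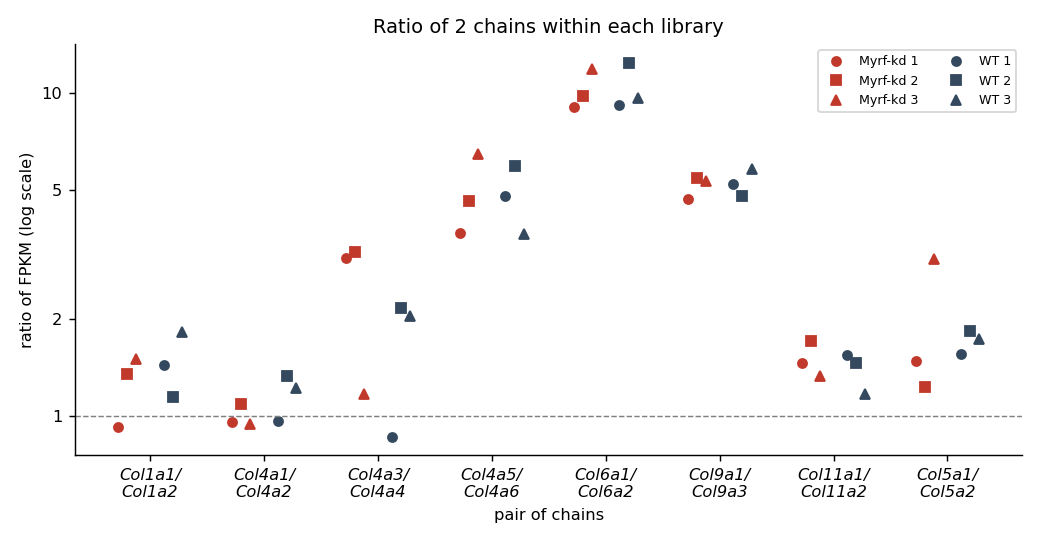
Ratio of the FPKM of a pair of collagen chains, on a log axis, in each of the 6 libraries; colour gives the group and shape the library number, and the dashed line marks equal levels. Col4a1 to Col4a2 stays near 1, Col6a1 to Col6a2 near 10, and Col4a3 to Col4a4 spreads from 0.866 to 3.22.

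Chains of 1 helix were compared as ratios of FPKM within a library, which a common gain or loss of RNA leaves unchanged. Col4a1 to Col4a2 had a mean ratio of 1.09 ± 0.160 (SD, n = 6 libraries); the known helix holds more copies of the first chain than of the second. Col1a1 to Col1a2 was at 1.37 ± 0.310, lowest in Myrf-kd 1 (0.924) and highest in WT 3 (1.83). Col11a1 to Col11a2 was at 1.45 ± 0.186 and Col9a1 to Col9a3 at 5.21 ± 0.413, the narrowest spread for its size. Col6a1 to Col6a2 was at 10.3 ± 1.44. In each of these pairs the Myrf-kd and WT values overlapped. As ratios of counts, not scaled by length, Col1a1 to Col1a2 turned below 1, to 0.721, Col6a1 to Col6a2 was at 5.403 and Col11a1 to Col11a2 at 2.67. Col4a3 to Col4a4, the pair that shares the 71-base stretch, varied most, from 0.866 in WT 1 to 3.22 in Myrf-kd 2. Col4a5 to Col4a6, which start 1308 bases apart on the X chromosome, was at 4.87 ± 1.15. Col5a1 to Col5a2 was at 1.82 ± 0.640 and highest, 3.05, in Myrf-kd 3, where Col5a2 stood further below the other libraries than Col5a1.

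Genes of the same processes outside the 45 were counted over 9 lists with 155 genes, of which 81 passed the filter. By edgeR 0 of the 81 passed (lowest adjusted p 0.666, with 6 under an unadjusted p of 0.05, where all genes tested gave 7.49%), and 0 by DESeq2 or limma. Lower estimates were found in 52 of them, with a median log2 fold change of −0.03. Some of these genes belong to the collagen terms that led to the choice of the set, so the counts are a description as well. Among the 81, the groups did not overlap in 6 with Myrf-kd lower and in 1, Tgfbr1, with Myrf-kd higher, where all genes tested gave 6.57% and 7.96%. Over all 155, of which 74 were below the filter, it was 10 lower and 1 higher. Genes with a mean of 0.1 to 1 FPKM gave 4.35% and 7.02%.

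Of 21 other collagen chains, 4 passed the filter, all with a lower estimate, at a median log2 fold change of −0.06. Col23a1, a membrane-spanning collagen, was the most abundant at 13.5 ± 0.541 and 13.9 ± 0.784 FPKM, and Col9a2, the third chain of type IX, was at 2.57 ± 0.526 and 2.67 ± 0.226 FPKM. Col8a2, a collagen of the corneal endothelium, was at 1.35 ± 0.271 and 1.92 ± 0.151 FPKM, without overlap. Of 19 other synthesis enzymes and chaperones past the filter, 14 had a lower estimate, with a median of −0.07. P4hb, the shared subunit of prolyl 4-hydroxylase, was at 66.8 ± 1.88 and 68.7 ± 3.66 FPKM and the prolyl isomerase Ppib at 26.03 ± 0.397 and 27.1 ± 1.88 FPKM. Pcolce, which aids the trimming of type I procollagen, was at 1.64 ± 0.184 and 2.18 ± 0.2103 FPKM, without overlap.

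Laminins and other basement membrane genes had lower estimates in 3 of 7, with a median of 0.01. Agrn, agrin, was at 8.94 ± 1.18 and 8.75 ± 0.269 FPKM and Lamc1, the common laminin gamma chain, at 4.19 ± 0.707 and 4.6 ± 0.229 FPKM. Other proteoglycans were lower in 5 of 8, with a median of −0.02, and Spock2, a proteoglycan of neurons, was at 77.1 ± 6.302 and 77.9 ± 6.16 FPKM. Elastic fibre genes were lower in 3 of 6, with a median of 0.04. Efemp1, fibulin-3, was at 20.7 ± 5.07 and 16.8 ± 0.875 FPKM, with 26.4 FPKM in Myrf-kd 1 and at most 18.9 FPKM elsewhere. Mfap2, a microfibril protein, was at 8.39 ± 2.26 and 9.78 ± 1.13 FPKM.

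Matricellular genes were lower in 5 of 8, with a median of −0.01. Vitronectin (Vtn) was at 277 ± 4.02 and 265 ± 11.5 FPKM and Sparcl1, the relative of Sparc, at 110.2 ± 0.998 and 109 ± 5.26 FPKM. Ccn1, a secreted integrin ligand, was at 3.35, 2.86 and 1.696 FPKM in Myrf-kd, against 4.32, 3.92 and 4.11 FPKM in WT, without overlap, and its log2 fold change of −0.66 ± 0.25 was the lowest of the 81 genes. Other proteinases and inhibitors were lower in 6 of 10, with a median of −0.02. The inhibitors Timp2, at 24.2 ± 0.856 and 25.97 ± 1.97 FPKM, and Timp3, at 19.03 ± 4.46 and 20.7 ± 1.08 FPKM, were the most abundant, and Adamts1 was at 5.59 ± 1.03 and 7.204 ± 0.132 FPKM, without overlap. Collagen and matrix receptors were lower in 7 of 10, with a median of −0.07, with the collagen receptor Ddr1 at 17.1 ± 0.464 and 16.3 ± 0.296 FPKM and the integrin chain Itgb1 at 12.9 ± 0.656 and 13.2 ± 1.96 FPKM. TGF-beta signalling, a known inducer of collagen genes, was lower in 5 of 9, with a median of −0.06. Its ligand Tgfb2 was at 9.37 ± 1.21 and 8.81 ± 0.683 FPKM and its mediator Smad3 at 7.25 ± 1.09 and 8.05 ± 0.853 FPKM. Of the receptors, Tgfbr1 was at 5.36, 6.03 and 6.09 FPKM in Myrf-kd, against 1.98, 5.05 and 2.71 FPKM in WT. WT 2, near the Myrf-kd libraries, was well above WT 1 and WT 3. Tgfbr3 was at 0.958, 0.9401 and 0.88 FPKM in Myrf-kd, against 1.17, 1.14 and 1.19 FPKM in WT, lower in each Myrf-kd library. Tgfbr1, Tgfbr3, Ccn1, Adamts1, Pcolce and Col8a2 had adjusted p-values of at least 0.666 by edgeR.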

How the data were processed

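RNA of 6 mouse retina samples was sequenced. Total RNA was isolated with Trizol and sequenced by Illumina's usual procedure, per the labels' protocols. Whether the reads keep their strand is unknown from the labels, so reads where Col4a1 and Col4a2 overlap cannot be told apart. The submitters' processing notes name the build GRCm38 and the tools HISAT2 2.0, StringTie 1.3.0 and Bowtie 0.12.2, without saying what each did. The authors deposited 1 table with an FPKM and a count per gene and library, per the file headers. The FPKM deposited by the authors list 0.0001 where there was no signal. The counts deposited by the authors are whole numbers and were read as estimated counts. Low values pile up at 4 units, which are therefore counted as 1 fragment. Library totals were 50695091 to 70298511 units.

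Groups come from the sample titles. Genes with a mean of at least 1 FPKM over the 6 libraries were fitted with edgeR 4.0.16 (R 4.3.3), by its quasi-likelihood test with TMM factors and a single term for genotype. Two-sided p-values were adjusted by Benjamini-Hochberg over all 13673 genes, at a threshold of 0.05. SEs of log2 fold changes were derived from the F statistic (estimate divided by its square root). Biological variation (edgeR's coefficient) was 20.3%. The script was tested on simulated data. Alternatives used limma 3.58.1, DESeq2 1.42.0, other filters and scalings, a replicate block, sex as a covariate and the omission of each library. The fit over the 4 male libraries was added after seeing the data.

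The 45 genes, their 7 classes, the 9 lists of related genes and the marker lists were chosen with earlier results of these data known. Each of the 45 genes past the filter is given by library, those below it by range or by library, and up to 4 genes of a list by highest mean FPKM; genes whose groups did not overlap, or that were high in 1 library, were named after their values were seen. In the table, 1 listed symbol (Mab21l4) was not found, and Ccn1 and Ccn2 were matched by synonyms. Coordinates are those of the table, on GRCm38, and sequences those of RefSeq on GRCm38.p6. The results of 2 genes are not reported here.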

Additional observations from a re-analysis of the deposited data

How the results depend on the processing

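The number of genes called by edgeR, 6 over all genes tested, was 2 with a filter at a mean of 5 FPKM, 53 by DESeq2, 22 over the 4 male libraries and 9 to 16 with 1 library left out (16 without Myrf-kd 3). The replicate numbers did not pair the samples, with correlations of −0.05, 0.03 and 0.10 between same-numbered libraries, and a replicate block left 0 genes called by edgeR (702 under an unadjusted p of 0.05). The 45 genes and the 155 related genes, as far as each filter kept them, gave 0 calls under every alternative run. At a mean of at least 5 FPKM, 8 of 10 remaining genes had a lower estimate. The median log2 fold change of the set lay between −0.21 and −0.09 over all alternatives. As ratios of counts, not scaled by length, Col1a1 to Col1a2 was at 0.721, Col6a1 to Col6a2 at 5.403, Col9a1 to Col9a3 at 6.83 and Col11a1 to Col11a2 at 2.67. Over 554 alternative estimates of the 32 genes, 16 turned sign, in 10 genes (Col18a1, Col19a1, Col20a1, Col4a3, Col9a3, Fbln1, Fmod, Mgp, Mmp2 and Sparc). Below the filter, few fragments limit Lum, Aspn, Fbln2 and Kera.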
